A study of Mus musculus with 6 samples.

Results

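The nuclear genes for subunits of the 5 oxidative phosphorylation complexes were compared between olfactory tissue of newborn mice with and without Atf5. Members were chosen by symbol alone, as genes named Ndufa, Ndufb, Ndufs or Ndufv with a number, Sdha to Sdhd, Uqcr, Cox4 to Cox8 and Atp5, leaving out pseudogene symbols. This gave 79 of the 19937 genes measured, with 33 in complex I, 4 in complex II, 8 in complex III, 17 in complex IV and 17 in complex V. The complex was read from the symbol, so Ndufa4, now placed in complex IV, and Ndufa4l2 count under complex I. No member passed the test between the genotypes, and the largest estimated difference with all arrays was 1.20-fold, for Ndufa4l2.

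The respiratory chain lies in the inner mitochondrial membrane. Complex I takes electrons from NADH and complex II from succinate, complex III passes them on to cytochrome c and complex IV to oxygen, and complexes I, III and IV pump protons that complex V uses to make ATP. All subunits of complex II and most of the others are encoded in the nucleus, and their transcripts tend to be produced together in proportion to a cell's energy demand. Olfactory sensory neurons spend ATP on signalling in their cilia and on ion pumping.

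The Atf5 protein is a leucine zipper factor that binds DNA and belongs to the ATF/CREB group. RNA came from septa and turbinates of the nose, dissected on the day of birth from C57BL6 pups of heterozygous parents. The knockout group was Atf5-/- and the control group Atf5+/+, with 3 samples each and 3 pups pooled in every sample. The design text describes pups from different litters and independently prepared samples, so the spread between arrays is that between pools, and no pup has a value of its own. Which part of Atf5 was removed is not given in the sources used here, and the deletion was not described as limited to any cell type.

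Levels are log2 values of 1 probe set per gene, and a difference is the knockout mean minus the wild-type mean on that scale. Atf5 itself was at 9.43, 9.44 and 9.50 in Atf5-/- arrays against 10.54, 10.96 and 10.63 in Atf5+/+ arrays (difference -1.25, SE 0.10, adjusted p = 0.000499 by limma over all genes). The 10 markers of mature olfactory sensory neurons all passed and were lower, with a median difference of -1.78. All 5 immature neuron markers lay below 0, and 3 of them passed (median -0.43). All 7 cell division markers lay above 0, and 2 of them passed (median 0.29). Over all genes, 0.502% passed as higher and 3.24% as lower. No marker of skeletal muscle (15 measured, median 0.38), smooth muscle (5, 0.08), respiratory cilia (6, 0.03), brown fat cells (4, -0.08) or red blood cells (3, -0.04) passed. When replicate numbers were blocked, more markers did: 4 of 5 for immature neurons and 5 of 7 for cell division. Myh3 (0.96) and Mylpf (0.37) of skeletal muscle and Alas2 (0.39) of red blood cells were then higher, and Cidea (-0.28) of brown fat cells lower, with adjusted p = 0.0438, 0.0449, 0.00982 and 0.0414 by limma. The mean over muscle markers was 8.79 in wild-type replicate 1 and 9.69 to 10.05 in the other 5 arrays. In tissue of mixed cells, fewer cells of a type and less RNA per cell cannot be told apart.

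None of the 79 members passed an adjusted p of 0.05 in limma, in either direction, while 745 of 19937 genes did (3.74%; 0.502% higher and 3.24% lower). The lowest adjusted p of any member was 0.219. At an unadjusted p under 0.05, 4 members stood out (5.06%), against 16.1% of all genes. All 4 lay higher in the knockout, where 7.82% of all genes were higher and 8.28% lower at that p: Ndufa3, Uqcr10, Cox6b2 and Atp5g2. With a trended and robust prior, no member passed either (4.15% of all genes did), nor when replicate numbers were blocked (6.57% of all genes, 2.11% higher and 4.46% lower). With that block, 11 members (13.9%) had an unadjusted p under 0.05, against 20.8% of all genes, and the lowest adjusted p was 0.0804, of Uqcr10. The mean over the 10 mature neuron markers was 9.14 to 9.30 in knockout and 10.90 to 11.24 in wild-type arrays. Whether this shift reflects cell makeup, and its part in the members' values, was not tested.

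Differences lay on both sides of 0. They were above 0 for 40 members and below 0 for 39, with a median of 0.00077 beside 0.0072 over all genes. When probe sets under the median of all probe sets were left out, 72 members remained. The median over the 11485 genes then left was 0.035. They ran from -0.20 for Ndufs3 to 0.27 for Ndufa4l2. Both ends rested on single arrays: Ndufs3 was at -0.06 without knockout replicate 3. Ndufa4l2 was at 0.10 without that array and at 0.45 without knockout replicate 1. Dropping wild-type replicate 1 gave 0.16 for Ndufa4l2, and neither gene passed in any of these fits. A difference under 0.1 in size was measured for 60 members (75.9%) and for 62.4% of all genes. The groups did not overlap for 11 members (13.9%), compared with 21.1% of all genes. Of these, 6 lay higher in the knockout (Ndufa3, Ndufa7, Cox6b2, Cox8b, Atp5g2 and Atp5k; 10.8% of all genes) and 5 lower (Ndufa5, Ndufa9, Ndufb10, Atp5b and Atp5c1; 10.3%).

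The intervals say how large a difference these arrays leave room for. The 95% interval of the difference had a median half-width of 0.15 over members and 0.17 over all genes, each interval being for 1 gene with no correction for their number. It lay within 1.25-fold in both directions for 70 members and within 1.5-fold for 78. The exception at 1.5-fold was Ndufa4l2, whose interval reached 0.63, or 1.55-fold higher. The lowest bound was -0.44, or 1.36-fold lower, for Ndufs3. No interval lay within 1.1-fold, so a change of that size in any 1 member was not resolved.

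**Figure D1:**
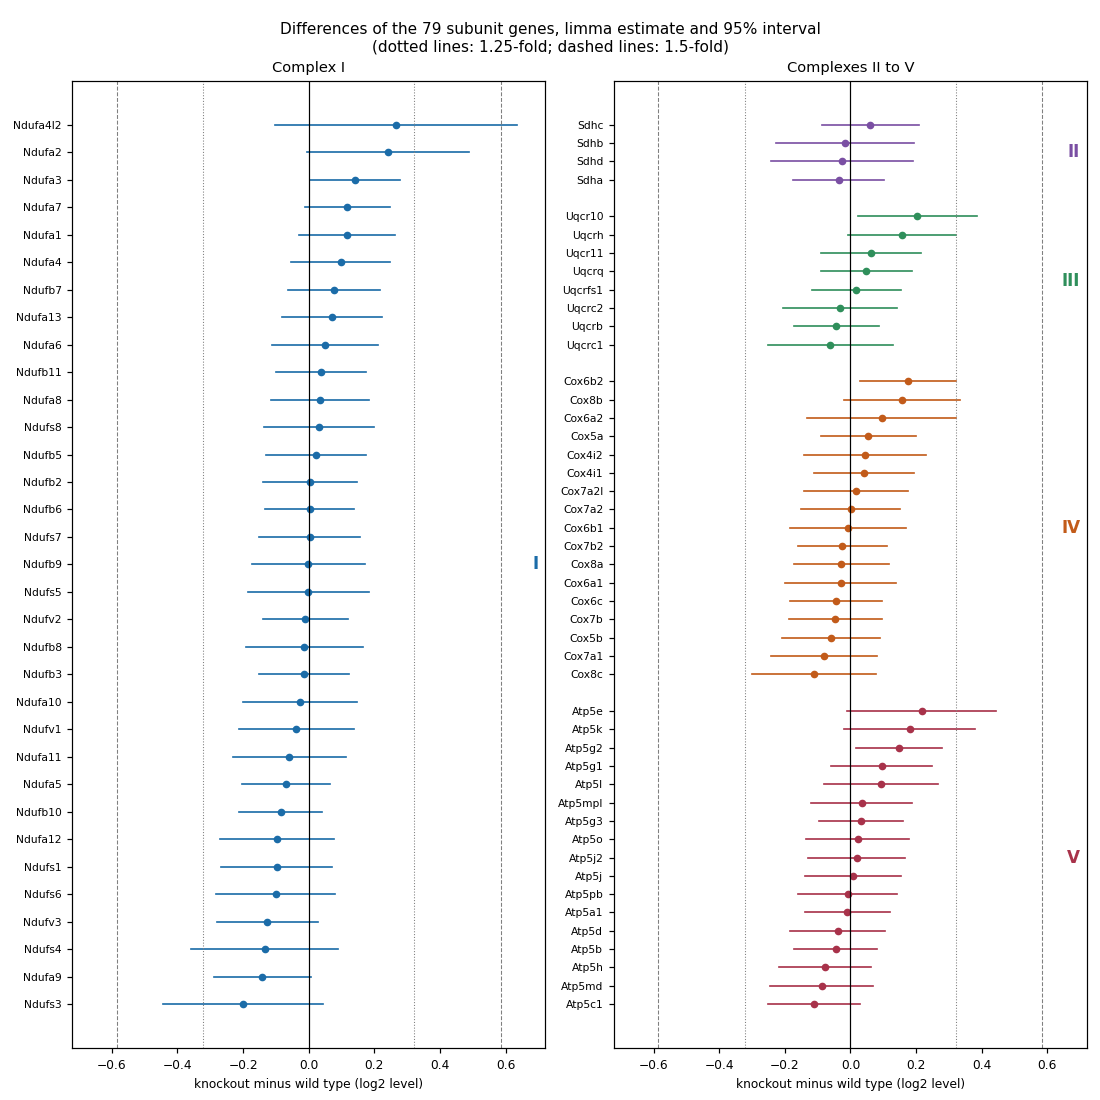
Differences of the 79 subunit genes, knockout minus wild type in log2 units (x axis), as limma estimates (points) with 95% intervals (bars), 3 arrays per genotype, sorted by size within each complex. Dotted lines mark 1.25-fold and dashed lines 1.5-fold; only the interval of Ndufa4l2 passes a dashed line.

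In complex I, none of 33 members passed, 16 lay above 0 and 17 below, and the median difference was -0.0014. The 6 core subunits measured, which carry the flavin and iron-sulfur clusters or shape the quinone site, had a median of -0.024. Ndufv1, which binds NADH and the flavin, was at 10.83, 10.82 and 10.65 without Atf5 against 10.71, 10.81 and 10.91 with it. Its groups overlapped (difference -0.04, SE 0.08, adjusted p = 0.872). Ndufv2, an iron-sulfur partner of Ndufv1, was at 11.98, 12.02 and 11.95 in knockout arrays against 12.00, 11.99 and 11.99 in wild-type arrays (-0.010, SE 0.06). Ndufs1, the largest iron-sulfur subunit, was at 10.53, 10.69 and 10.47 against 10.65, 10.73 and 10.60 (-0.10, SE 0.07, adjusted p = 0.597). Its knockout arrays reached into the wild-type range with replicate 2 alone.

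Ndufs3, a core subunit of the arm that leads to quinone, had the lowest difference of all members. It was at 10.93, 10.88 and 10.49 in Atf5-/- arrays against 10.96, 11.02 and 10.92 in Atf5+/+ arrays (-0.20, SE 0.11, adjusted p = 0.419). Knockout replicate 3 was low by itself, while knockout replicate 1 lay inside the wild-type range. A second probe set of Ndufs3 differed in the opposite direction, by 0.14, and the mean of both probe sets differed by -0.03.

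The 27 genes counted by symbol as accessory subunits of complex I, among them Ndufa4 and Ndufa4l2, had a median of 0.0028. Ndufa3, a small membrane-arm subunit, had the lowest p of the complex, at 11.28, 11.34 and 11.35 without Atf5 against 11.21, 11.12 and 11.22 with it (0.14, SE 0.06, adjusted p = 0.292). Its groups did not overlap. Ndufa9, which lies near the quinone site, differed by -0.14 (adjusted p = 0.330) and Ndufa2 by 0.24 (adjusted p = 0.326); both were named after their values were seen. The 9 members of the Ndufb series lay between -0.09 for Ndufb10 and 0.08 for Ndufb7.

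Complex II had 4 members and no large difference. Sdha, the flavoprotein that oxidises succinate, was at 11.71, 11.71 and 11.60 in knockout arrays against 11.74, 11.70 and 11.67 in wild-type arrays (-0.04, SE 0.06, adjusted p = 0.844). Sdhb, the iron-sulfur subunit, was at 10.40, 10.54 and 10.38 against 10.43, 10.64 and 10.29 (-0.02, SE 0.09). In Sdhb the second array was the highest of each genotype. Sdhc, a membrane anchor, had the only difference above 0 (0.06, SE 0.07, adjusted p = 0.727), and Sdhd, the other anchor, was at -0.02. The median was -0.020.

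In complex III, 5 of 8 members lay above 0 and the median was 0.033. Uqcr10, a small accessory subunit, was at 9.19, 9.38 and 9.27 in Atf5-/- arrays against 8.97, 9.21 and 9.05 in Atf5+/+ arrays (0.20, SE 0.08, adjusted p = 0.251). Knockout replicate 1 lay just under wild-type replicate 2, so the groups overlapped. Within each replicate number the knockout array was the higher. The hinge protein Uqcrh was at 0.16 (adjusted p = 0.339), named after its values were seen. The Rieske iron-sulfur protein Uqcrfs1, which carries electrons towards cytochrome c, was at 9.70, 9.82 and 9.73 against 9.73, 9.75 and 9.72 (0.02, SE 0.06, adjusted p = 0.930). The core protein Uqcrc1 had the lowest difference of the complex (-0.06, SE 0.08), with wild-type replicate 2 at 11.81 and the other 5 arrays between 11.51 and 11.59.

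Complex IV had 17 members, 8 above 0 and 9 below, with a median of -0.0075. Among the subunits present in most tissues, Cox4i1, which binds regulatory nucleotides, was at 10.54, 10.70 and 10.68 without Atf5 against 10.57, 10.66 and 10.57 with it (0.04, SE 0.07, adjusted p = 0.832). Cox5a was at 0.05 (SE 0.06, adjusted p = 0.755). Knockout and wild-type arrays overlapped for both. The lowest difference was that of Cox8c, a subunit known from testis, at 8.41, 8.13 and 8.40 against 8.39, 8.47 and 8.42 (-0.11, SE 0.08, adjusted p = 0.593), where knockout replicate 2 was low alone. The catalytic core of complex IV is encoded by mitochondrial DNA; of the 13 genes of that genome for subunits, 2 had a probe set with 1 symbol, COX2 (0.05, adjusted p = 0.830) and ND3 (0.02, adjusted p = 0.893).

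Several subunits of complex IV exist as a common and a tissue-restricted isoform, and 7 such pairs were compared, counting Ndufa4l2 and Ndufa4, of which the latter is now placed in complex IV. Cox8b, a heart and muscle isoform, was at 8.97, 9.22 and 9.004 in knockout arrays against 8.88, 8.97 and 8.87 in wild-type arrays (0.16, SE 0.08, adjusted p = 0.369). Its lowest knockout array and highest wild-type array were nearly level. The common isoform Cox8a was at 11.78, 11.88 and 11.82 against 11.81, 11.93 and 11.81 (-0.03, SE 0.06). The log2 ratio of Cox8b to Cox8a within an array was -2.81, -2.66 and -2.82 in Atf5-/- arrays against -2.94, -2.97 and -2.94 in Atf5+/+ arrays, where only the change between genotypes has a meaning, since probe sets differ in brightness. The ratio did not overlap between genotypes and was 0.19 higher in the knockout (exact permutation p = 0.1, 2-sided, the smallest that 3 against 3 arrays can give; 0.467 adjusted over the 7 pairs).

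The other 6 pairs overlapped, with exact permutation p from 0.2 to 0.9. Cox6a2, the heart and muscle partner of Cox6a1, was at 9.55, 9.56 and 9.71 without Atf5 against 9.28, 9.63 and 9.63 with it (0.10, SE 0.10, adjusted p = 0.717). Wild-type replicate 1, the array with the lowest muscle markers, was also the lowest here, and without it the difference was -0.02. Cox7a1, another muscle and heart isoform, lay below 0 (-0.08, SE 0.07, adjusted p = 0.649), and its common partner Cox7a2 was at 0.00077. The part of muscle tissue in these values was not tested.

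Cox6b2, an isoform known from testis, had the lowest p of all members, at 8.58, 8.64 and 8.67 in knockout arrays against 8.37, 8.46 and 8.52 in wild-type arrays (0.18, SE 0.06, adjusted p = 0.219). Each of these values lay under the median level of its array. All 3 knockout arrays lay above the wild-type arrays, while Cox6b1, the common form, was at -0.0075 (SE 0.08). Cox4i2, a form known from lung and oxygen-sensing cells, was at 0.04 (SE 0.08), like Cox4i1. Cox7b2 differed by -0.02 and Cox7b by -0.05. The level of Cox7b2 was 5.73 to 5.84 in all arrays, far under the array medians of 8.67 to 8.72, so its difference and ratio say little. Ndufa4l2, known to be induced by low oxygen, had the highest difference of all members and the widest spread, at 8.46, 8.86 and 9.14 in Atf5-/- arrays against 8.34, 8.76 and 8.56 in Atf5+/+ arrays (0.27, SE 0.16, adjusted p = 0.484). Knockout replicate 3 was the highest array and knockout replicate 1 lay within the wild-type range. Ndufa4 was at 0.10 (SE 0.07, adjusted p = 0.549).

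**Figure D2:**
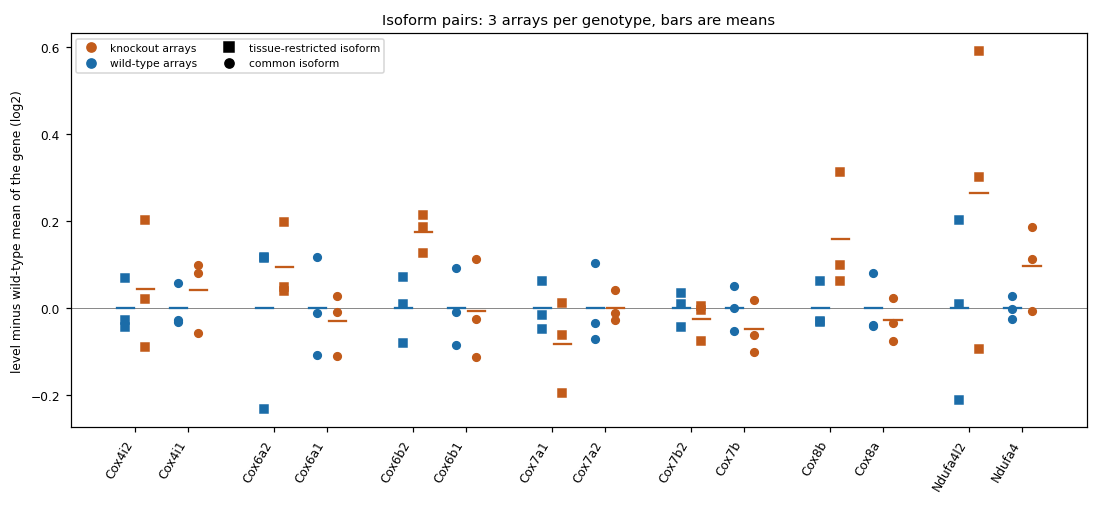
Level of each gene of the 7 isoform pairs minus its own wild-type mean, in log2 units, for the 3 knockout (orange) and 3 wild-type (blue) arrays; squares are tissue-restricted and circles common isoforms, and bars are means. The genotypes are apart for Cox6b2 and Cox8b and overlap for the other 12 genes, with the widest scatter in Ndufa4l2.

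In complex V, the ATP synthase, 10 of 17 members lay above 0 and the median was 0.019. No gene of the head that makes ATP passed. Atp5a1 was at 12.43, 12.48 and 12.41 without Atf5 against 12.47, 12.43 and 12.46 with it (-0.0091, SE 0.06, adjusted p = 0.965). Atp5b, which holds the catalytic sites, was at 13.31, 13.32 and 13.32 against 13.39, 13.34 and 13.36 (-0.05, SE 0.06, adjusted p = 0.768). The arrays of Atp5b did not overlap. The difference of means was smaller than the standard error of limma, which draws on the spread of all genes. It was larger than the SD between arrays of a genotype for this gene, 0.018. Atp5c1, the rotating shaft, had the lowest difference of the complex, at 12.09, 12.21 and 12.12 against 12.24, 12.30 and 12.21 (-0.11, SE 0.06, adjusted p = 0.439). Atp5e, a small subunit of the stalk foot, had the highest, at 9.06, 9.23 and 9.39 against 8.97, 9.17 and 8.88 (0.22, SE 0.10, adjusted p = 0.331), with overlapping groups. Atp5c1 and Atp5e, whose products turn together, thus had differences of opposite sign, and neither passed. Atp5d, also counted with the head and stalk, had the sign of Atp5c1 (-0.04, SE 0.06, adjusted p = 0.830). It was named after its values were seen.

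The ring that turns the shaft is built from the c subunit, whose mature form is encoded alike by Atp5g1, Atp5g2 and Atp5g3. By the probe sets used, all 3 lay above 0. Atp5g2 was at 12.45, 12.51 and 12.49 in knockout arrays against 12.31, 12.32 and 12.38 in wild-type arrays (0.15, SE 0.06, adjusted p = 0.245), with no overlap. Its other 2 probe sets, which were dimmer, differed by -0.05 and 0.24. Atp5g1 was at 11.87, 11.89 and 11.81 against 11.67, 11.86 and 11.76 (0.10, SE 0.07, adjusted p = 0.563). A second, dimmer probe set of Atp5g1 differed by -0.05, and the mean of both by 0.02. Atp5g3 was at 0.03 (SE 0.06). The 4 subunits of the peripheral stalk, which holds the head still, lay between -0.08 and 0.02.

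The medians of the 5 complexes lay between -0.020 and 0.033, and the median over all genes was 0.0072. Over the 11485 genes left without the dimmer probe sets it was 0.035. The spread of a complex's mean between arrays of a genotype had an SD of 0.039 for complex I, 0.083 for II, 0.048 for III, 0.046 for IV and 0.035 for V, so each median was smaller than that spread. Their signs were not stable: complex I was at 0.0040 after median centring of the arrays, and complex V at -0.0091 after quantile normalization. No order of the complexes is therefore given. Leaving out knockout replicate 2 gave medians below 0 in all 5 complexes, from -0.059 to -0.0054.

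Members tended to lie high or low together in an array. In knockout replicate 2, 68 of 79 members (86.1%) were above their knockout mean, by 0.051 on average, where 52.2% of all genes were above theirs. Wild-type replicate 2 was the highest of its genotype, with 51 members (64.6%) above the wild-type mean and 59.5% of all genes. The same held by complex for knockout replicate 2, with 28 of 33, 4 of 4, 7 of 8, 13 of 17 and 16 of 17 members above the mean in complexes I to V. The mean over all members was 10.63, 10.71 and 10.63 in Atf5-/- arrays against 10.62, 10.68 and 10.63 in Atf5+/+ arrays. A technical part in this shift was not tested. The SD between arrays of a genotype had a median of 0.072 over members and 0.0895 over all genes.

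**Figure D3:**
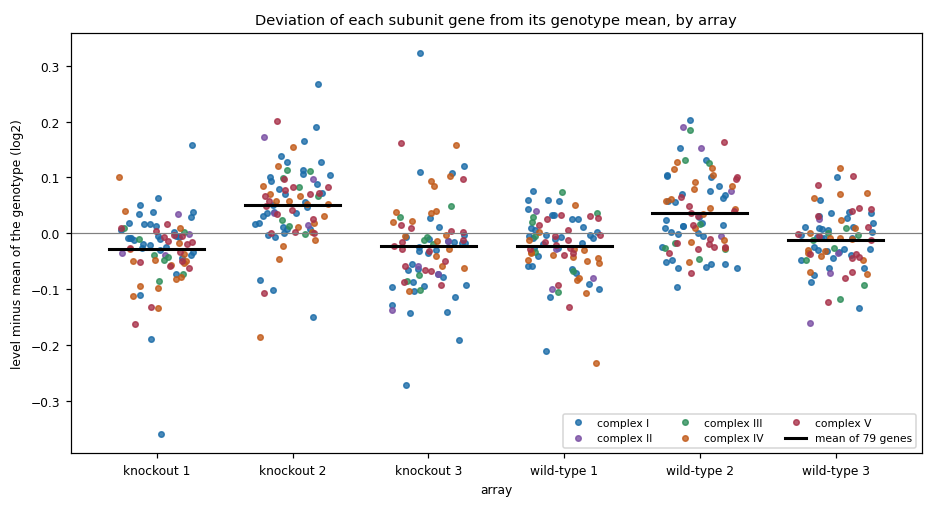
Level of each of the 79 genes minus its mean in the same genotype (y axis, log2 units) for each array (x axis), coloured by complex; black bars are the mean over the genes. Most points of knockout replicate 2 lie above 0, with a mean of 0.051, and the means of the other 5 arrays lie between -0.029 and 0.036.

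Promoters of the members shared sequence features that the symbols do not carry. RefSeq windows (GRCm38.p6) from 250 bases before to 50 after a start were at hand for 64 members, in 69 windows. They held a median of 19 CpG pairs, against 7 in all 32851 windows, and 57.3% G or C against 52.7%. Letters bound by NRF1, a known activator of respiratory genes (GCGCA and GCGC with 1 base of any kind between), stood in 24.6% of member windows and 4.6% of all windows. Letters of the ETS factor GABPA (CCGGAAG) were in 24.6% and 8.9%, and those of YY1 (AAGATGGC) in 13.0% and 2.7%. The cyclic AMP element TGACGTCA, to which ATF/CREB factors bind as a family, was in 5.8% and 1.8%. The C/EBP-ATF element TGATGNAA was in 0 of 69 member windows and in 4.0% of all, and the TATA letters TATAAA were in 13.0% and 13.6%. Each motif was read on both strands, and none of the 6 is contained in another. They were picked with the shares in view, and the part of CpG content in these shares was not tested. A match describes letters and not binding.

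The 16 members with the NRF1 letters had a median difference of -0.027 and the other 48 one of 0.0026, beside 0.00077 over all members. The NRF1 matches are shown for 5 members of 4 complexes because this motif and that of GABPA stood in more member windows than the other 4; capitals mark the matching letters, and each window is printed 5′ to 3′ on the strand of its gene and ends before the start. The Ndufa11 window is chr17:56717677-56717736 on the plus strand. The other windows are on the minus strand, at chr9:50603894-50603953 for Sdhd, chr5:115349086-115349145 for Cox6a1, chr15:102671055-102671114 for Atp5g2 and chr5:108434415-108434474 for Atp5k. Cox6a1 had a second match nearer its start, which is not shown.
Ndufa11: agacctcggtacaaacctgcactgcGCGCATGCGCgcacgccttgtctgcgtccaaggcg
Sdhd: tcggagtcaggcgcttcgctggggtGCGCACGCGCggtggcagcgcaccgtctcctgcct
Cox6a1: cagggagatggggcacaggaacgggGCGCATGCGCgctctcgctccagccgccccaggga
Atp5g2: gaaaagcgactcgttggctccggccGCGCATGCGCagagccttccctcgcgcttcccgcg
Atp5k: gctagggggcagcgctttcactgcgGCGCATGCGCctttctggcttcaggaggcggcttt
The differences of these members were -0.06 for Ndufa11, -0.02 for Sdhd, -0.03 for Cox6a1, 0.15 for Atp5g2 and 0.18 for Atp5k (adjusted p = 0.364), which lie on both sides of 0.

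Genes that serve the chain were counted by list. Of 41 assembly factors none passed (median -0.0024), the lowest p being that of Sco1, a copper carrier for complex IV (0.15, adjusted p = 0.406). None of 13 citric acid cycle genes passed (median -0.038), nor did Idh2 with the lowest p (0.13, adjusted p = 0.290), and none of the 5 remaining nuclear subunits and cytochrome c, where Cycs was at -0.11 (adjusted p = 0.446). The 15 regulators of mitochondrial biogenesis had a median of 0.075 and no call. Pprc1, a coactivator, had the lowest p (0.16, adjusted p = 0.329). Named in addition for their known part in respiratory gene expression, Nrf1 was at 0.08 (adjusted p = 0.701), Gabpa at 0.15 (adjusted p = 0.397) and Ppargc1a at 0.08 (adjusted p = 0.877). None of 6 carriers and porins passed (median 0.0060; Vdac1 0.08, adjusted p = 0.529). At an unadjusted p under 0.05 the counts were 0 assembly factors, 2 citric acid cycle genes, 0 remaining subunits, 0 regulators and 0 carriers. The 2 citric acid cycle genes were 15.4% of their list, near the 16.1% of all genes at that p.

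Without the block, 1 gene of these lists passed, where 3.74% of all genes did. This was Pdk4, a kinase that closes the entry of pyruvate into the citric acid cycle. It was at 10.18, 10.12 and 10.08 without Atf5 against 9.76, 9.59 and 9.50 with it, and rose by 0.51 (SE 0.08, adjusted p = 0.00710). Every knockout array lay above every wild-type array. The other 10 genes of pyruvate entry did not pass (list median 0.032), and none of 14 glycolysis genes did (median 0.067; Tpi1 0.21, adjusted p = 0.135). When replicate numbers were blocked, 6.57% of all genes passed. Mpc1, a subunit of the mitochondrial pyruvate carrier, was then also lower (-0.24, adjusted p = 0.0454 by limma, 0.207 without the block). Pfkl, a phosphofructokinase of glycolysis, was then higher (0.26, adjusted p = 0.0468 by limma, 0.281 without the block). Of 77 mitochondrial ribosomal proteins, 61 lay above 0 (79.2%, against 53.0% of all genes) with a median of 0.062. None passed, and 8 had an unadjusted p under 0.05 (10.4%, against 16.1% of all genes); the lowest adjusted p was that of Mrps30, at 0.148 (difference 0.28). When replicate numbers were blocked, 3 of them passed, all higher, where 2.11% of all genes did.

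**Figure D4:**
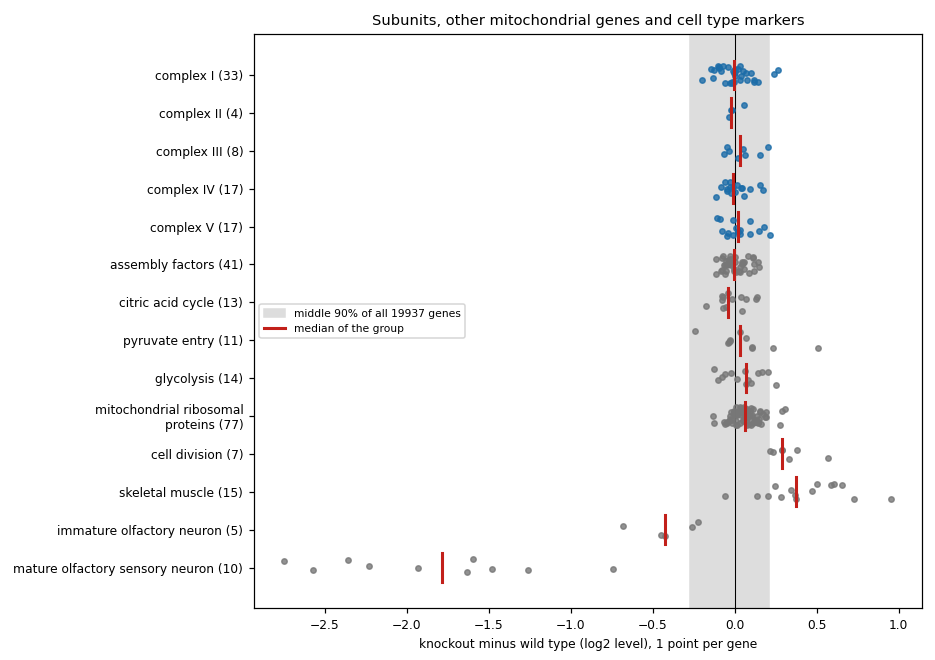
Difference of each gene, knockout minus wild type in log2 units (x axis), for the 5 complexes (blue), other mitochondrial lists and cell type markers (grey), with red lines at the medians and the number of genes in brackets; the shaded band holds the middle 90% of all 19937 genes, from -0.27 to 0.21. The subunits lie around 0, where the mature neuron markers have a median of -1.78.

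Probe sets bear on these values in another way. A further 22 probe sets belonged to 15 members and were dimmer than the one used; their differences ran from -0.11 to 0.28. Atp5l had 5 probe sets in all, and its differences were 0.09 for the one used and 0.04 to 0.28 for the others. Many subunit genes have processed copies in the mouse genome whose sequence is nearly the same, and probe sets cannot tell such copies apart.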

How the data were processed

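Biotin-labelled cDNA from total RNA was hybridised to 6 one-colour Affymetrix arrays. The authors deposited 1 value per probe set and array, and the submitters' processing notes name RMA, affy and limma without versions. The deposited values, from 4.50 to 14.7 with array medians of 8.67 to 8.72, were taken as log2, judged from their range and the named RMA; the order of steps and any filters were not given in the sources used here. Of 34760 probe sets, 21640 carried 1 gene symbol in the platform annotation, 1321 several and 11799 none; those with 1 symbol named 19937 genes. The probe set with the highest mean over the 6 arrays stood for a gene (954 genes had several), and 101 probe sets carried a member's symbol. No background or normalization step was added. The number of arrays limits the precision.

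Genotypes were compared with limma 3.58.1 in R 4.3.3 (lmFit, eBayes), p-values being adjusted by Benjamini-Hochberg across all genes and called at 0.05, and isoform ratios with exact permutation tests. The fit was tested on simulated data. Members, lists and alternatives were chosen with earlier results of these data known. The text names, in each complex, the members with the largest increase, largest decrease and lowest p, the isoform pairs, the c subunits, a set of core subunits and, of each other list, the genes past the threshold or the one with the lowest p; others are marked. Same-numbered samples of the 2 genotypes had deviations from their group means that correlated at 0.295, 0.122 and 0.234 over genes. Samples with different numbers correlated at -0.259 to 0.029. Deviations within a genotype sum to 0 for each gene, so the values for different numbers are not separate from those for same numbers. The numbers were taken to pair the samples on this ground, although no label says what same-numbered samples share. The pairing was not tested. Unless the block is named, tests, standard errors and intervals did not use the numbers. Promoter windows came from RefSeq (GRCm38.p6) and were searched with Python 3.11.15.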

Additional observations from a re-analysis of the deposited data

How the results depend on the processing

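No member tested passed under any of the 12 alternatives run, and the lowest adjusted p of a member lay between 0.0804 (replicate block) and 0.429 (without wild-type replicate 1). Leaving out probe sets under the median of all probe sets left 72 members to test. Cox6b2 and Ndufa4l2 were not among them. The count over all genes was 745 of 19937, and 1310 with the replicate block. When probe sets under the median of all probe sets were left out, it was 319 of only 11485 genes tested. The count lay between 410 and 649 when single arrays were dropped. The lowest was without wild-type replicate 1 and the next, 455, without knockout replicate 1. The replicate block changed no call of a member; the genes of other lists it added are given with those lists. The complex V median ran from -0.020 (without knockout replicate 2) to 0.037 and that of complex II from -0.059 to 0.065 (without wild-type replicate 2) when single arrays were dropped. Among named members, Cox6a2 ran from -0.021 (without wild-type replicate 1) to 0.15, Uqcrc1 from -0.12 to 0.031 and Sdhb from -0.097 to 0.079 (both highest without wild-type replicate 2). A change of sign smaller than the standard error of an uncalled member was not counted as a reversal. The causes were not tested. Isoform ratios were not recomputed for the block, the prior or the filter. With 3 arrays per genotype, differences under about 1.1-fold in a single gene were not resolved. Larger ones among the members, up to 1.20-fold for Ndufa4l2, did not pass either.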

Other observations

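Probe sets that carry a subunit symbol together with a second symbol were outside the members. There were 6, and 3 of them named Cox7c, a complex IV subunit, with Gm12338. The brightest was at 13.13, 13.13 and 13.17 in Atf5-/- arrays against 13.19, 13.12 and 13.16 in Atf5+/+ arrays. The dimmest was at 9.17, 8.30 and 7.51 without Atf5 against 6.56, 6.45 and 8.51 with it, a difference of 1.15 with a pooled SD of 1.01. The remaining one differed by -0.028, so the wide scatter was seen in 1 of 3 probe sets with the same symbols. Outside Cox7c, the probe sets naming Ndufb4 with Ndufb4b differed by -0.36 (pooled SD 0.23) and -0.073. The former was dim, at 5.77, 5.90 and 5.93 in Atf5-/- arrays against 6.08, 6.02 and 6.57 in Atf5+/+ arrays. The probe set naming Ndufs5 with Ndufs5-ps differed by -0.088.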
